A study of Saccharomyces cerevisiae with 6 samples.

Results

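The genes described here encode the Ras proteins of budding yeast (Saccharomyces cerevisiae), the enzymes that switch Ras on and off, and the adenylate cyclase that Ras stimulates. They were taken by symbol: RAS1, RAS2, CDC25, SDC25, IRA1, IRA2, CYR1 and SRV2. All 8 were found among the 5656 genes that a probe set of the array names alone, and 26 of 9335 probe sets name one of them. Each gene was read from its brightest such probe set over all arrays, and the other probe sets of IRA2 and CYR1 are described where those genes are.

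Ras proteins are small GTPases that act when bound to GTP. In yeast Cdc25 loads them with GTP, Ira1 and Ira2 make them hydrolyse it, and active Ras stimulates the adenylate cyclase Cyr1 to make cAMP, which frees the catalytic subunits of protein kinase A. The glucose receptor Gpr1 and its G protein alpha subunit Gpa2 reach the same cyclase by a separate route, so that both deletions studied here remove an input to Cyr1 while Ras remains.

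Total RNA was hybridised to 6 single-colour arrays of strain W303-1a, which carries mating type a. The groups were 2 arrays of a gpa2 deletion mutant, 2 of a gpr1 deletion mutant and 2 of wild type, and the title concerns how glucose sets cell size. The labels give no medium, growth phase, deletion method or number of clones. Nor do they say whether the arrays of a strain hold RNA of different cultures, so the spread behind the p-values may be only technical. In RNA of many cells together, fewer cells expressing a gene and less RNA per cell cannot be told apart.

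Median deposited intensities were 225.1 and 237.6 for the gpa2 deletion, 525.9 and 265.4 for the gpr1 deletion, and 562.9 and 373.6 for wild type, so values were quantile normalised between arrays before log2 was taken. Each deleted gene was near background on its own arrays. GPA2 read 9.3 and 10.9 in the gpa2 deletion, against 2410.3 and 1900.3 in wild type, and GPR1 read 5.1 and 2.8 in the gpr1 deletion, against 1086.4 and 1013.9 in wild type. The 6 genes specific to mating type a had deposited intensities of 495.7 to 10338 in the gpa2 deletion, 762.9 to 14438.5 in the gpr1 deletion and 592.7 to 13363.7 in wild type, and the 4 specific to alpha cells at most 331.7, 631.7 and 691.1. RNA quality can be read from control probe sets at the ends of SPT15. Their 3' over 5' ratio was 3.50 and 4.55 in the gpa2 deletion, 4.46 and 4.83 in the gpr1 deletion, and 3.16 and 10.3 in wild type. For ACT1, the actin control, it was 1.54 and 1.53 in the gpa2 deletion, 1.35 and 1.53 in the gpr1 deletion, and 1.26 and 1.29 in wild type, so this control did not set wild-type array 2 apart.

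No transcript of the Ras module passed the test for a difference between the strains. Of the 8 genes, 7 were bright enough to be tested, and 0 of these 7 passed limma's test (Benjamini-Hochberg adjusted p under 0.05 over 6956 probe sets) in any of the 3 comparisons. The background was 0.776% of probe sets for the gpa2 deletion against wild type, 0.23% for the gpr1 deletion against wild type and 0.0288% between the deletions. At an unadjusted p under 0.05 the count was also 0 of 7 each time, against 11.4%, 6.64% and 2.34% of all probe sets tested, so a count of 0 among 7 genes is close to the background. All 14 changes against wild type were smaller than 1.5-fold. They ran from a log2 change of -0.18 for IRA1 in the gpr1 deletion to 0.54 for CYR1 in the gpa2 deletion. The standard errors were 0.23 to 0.39. The lowest bound of a 95% interval was 0.566-fold, for IRA1 in the gpr1 deletion, and the highest 2.68-fold, for CYR1 in the gpa2 deletion. These are the extremes over the 7 genes, and each gene's own interval is given below.

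**Figure D1:**
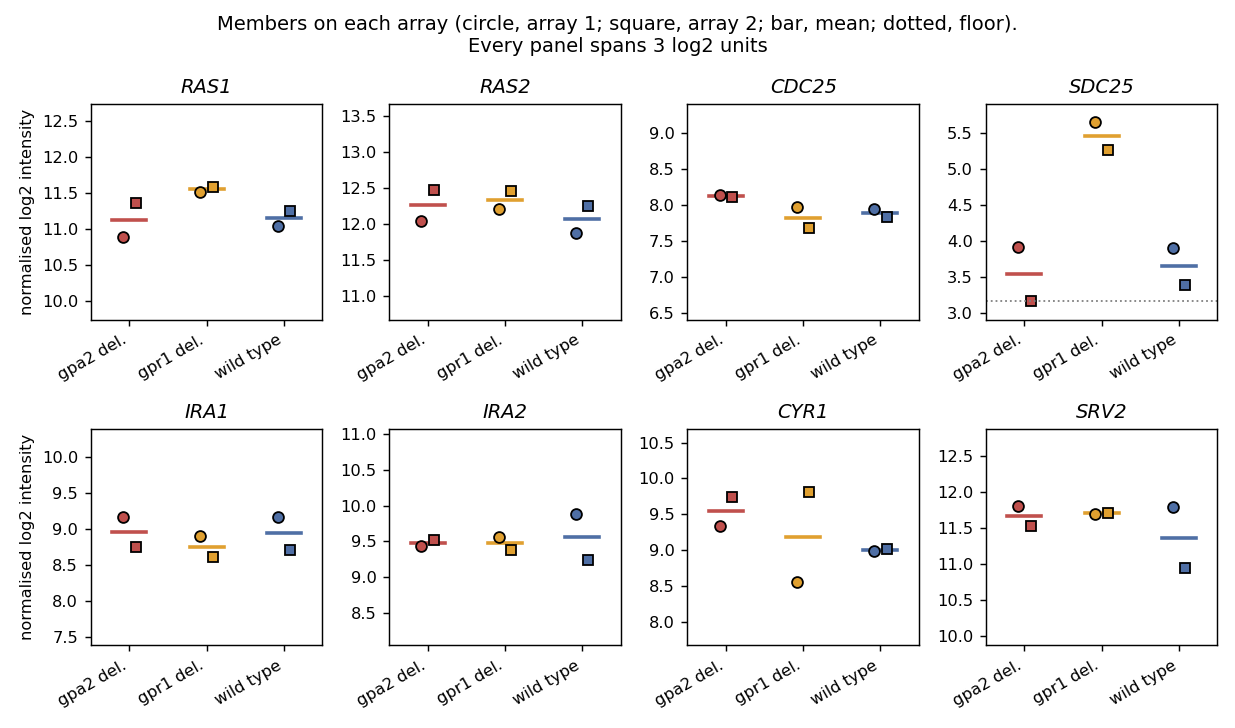
Normalised log2 intensity of the 8 genes (vertical axis, spanning 3 log2 units in every panel) on the 2 arrays of the gpa2 deletion, the gpr1 deletion and wild type. Points are arrays, bars are means and the dotted line is the floor of 3.16. SDC25 lies highest on the gpr1 arrays, at 5.65 and 5.26, and the other panels show small shifts or overlapping arrays.

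As a set, the 7 genes had a median log2 change of 0.20 in the gpa2 deletion, with 5 positive and 2 negative, beside a median of -0.02 and 47.9% positive over all probe sets tested. In the gpr1 deletion the median was 0.18, with 4 positive and 3 negative, beside 0.00 and 49.9% over all. Both comparisons use the same wild-type arrays. Between the deletions, gpa2 over gpr1, the median was 0.01. The mean log2 intensity of the 7 genes was 10.12 and 10.21 in the gpa2 deletion, 10.06 and 10.18 in the gpr1 deletion, and 10.10 and 9.89 in wild type. Wild-type array 2 was the lowest of the 6. Its SPT15 ratio of 10.3 was the highest of the arrays, while its ACT1 ratio of 1.29 was under that of every mutant array. Without it the median change was 0.08 in the gpa2 deletion and -0.08 in the gpr1 deletion, and the part of RNA quality in this was not tested. The gpr1 median also moved with the gpr1 arrays, to 0.34 without array 1 and 0.08 without array 2.

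The GTPases come first. RAS2, the Ras gene needed for growth on non-fermentable carbon sources, had normalised log2 intensities of 12.05 and 12.47 in the gpa2 deletion, 12.20 and 12.46 in the gpr1 deletion, and 11.87 and 12.25 in wild type. The 3 strains overlapped, and array 1 read lower than array 2 in each. The change was 1.15-fold in the gpa2 deletion (log2 0.20 ± 0.24, SE with n = 2 per strain as for every change below, limma adjusted p = 0.800) and 1.20-fold in the gpr1 deletion (log2 0.27 ± 0.24, limma adjusted p = 0.961). The 95% intervals were 0.787- to 1.67-fold and 0.826- to 1.75-fold.

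RAS1, its close paralogue, had normalised log2 intensities of 10.89 and 11.36 in the gpa2 deletion, 11.51 and 11.59 in the gpr1 deletion, and 11.04 and 11.24 in wild type. Both gpr1 arrays lay above the other 4 arrays, while the gpa2 arrays spanned those of wild type. The log2 change was 0.41 ± 0.23 in the gpr1 deletion (1.33-fold, 95% interval 0.923- to 1.90-fold, limma adjusted p = 0.869) and -0.02 ± 0.23 in the gpa2 deletion (0.989-fold, interval 0.688- to 1.42-fold, limma adjusted p = 0.988). Set directly against each other, the gpa2 deletion read 0.746-fold of the gpr1 deletion (log2 -0.42 ± 0.23, interval 0.520- to 1.07-fold). That contrast had the lowest unadjusted p of the 7 genes in all 3 comparisons, 0.0994, and a limma adjusted p of 1.00.

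Within an array the ratio of RAS1 to RAS2 cancels the array's brightness. Its level depends on the probes and is not read here, only its difference between strains. The log2 ratio was -1.16 and -1.11 in the gpa2 deletion, -0.69 and -0.87 in the gpr1 deletion, and -0.83 and -1.01 in wild type. The gpa2 arrays had the lowest ratios and did not overlap the other strains, and the gpr1 and wild-type arrays overlapped. Among single probe sets tested, 39.7% did not overlap between the gpa2 deletion and wild type, and 30.9% between the deletions. No such share was computed for ratios between genes. The mean differed from wild type by -0.21 in the gpa2 deletion and by 0.14 in the gpr1 deletion. With 2 arrays against 2 an exact permutation test cannot give a p below 0.333, so no test was run.

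**Figure D2:**
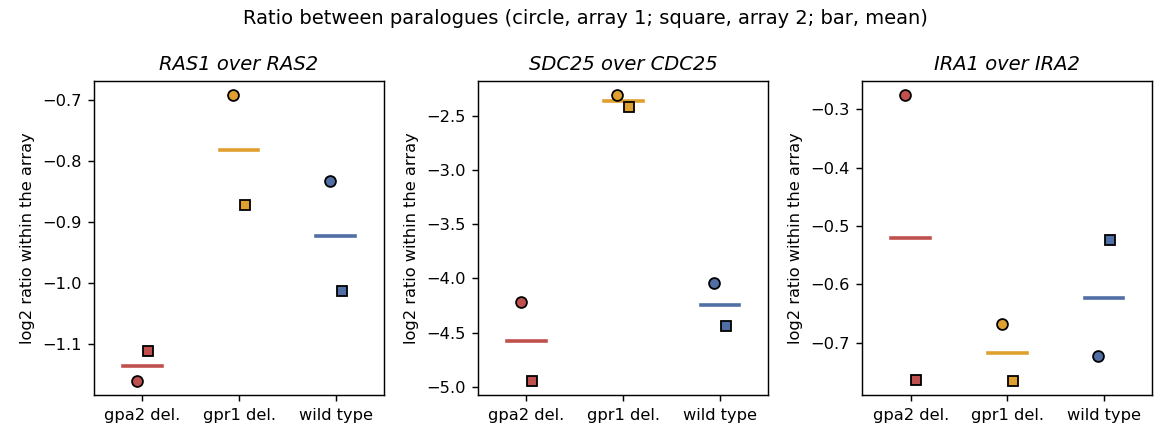
Log2 ratio between paralogues within each array (vertical axis) for RAS1 over RAS2, SDC25 over CDC25 and IRA1 over IRA2, in the gpa2 deletion, the gpr1 deletion and wild type. Points are arrays and bars are means. The RAS1 to RAS2 ratio is lowest on the gpa2 arrays, at -1.16 and -1.11, and the SDC25 to CDC25 ratio is highest on the gpr1 arrays, at -2.31 and -2.42.

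CDC25 encodes the exchange factor that loads Ras with GTP and is essential in common laboratory strains. Its normalised log2 intensity was 8.13 and 8.10 in the gpa2 deletion, 7.96 and 7.68 in the gpr1 deletion, and 7.94 and 7.83 in wild type. The gpa2 arrays were both above the other 4, by a small margin. The change was 1.17-fold in the gpa2 deletion (log2 0.23 ± 0.28, 95% interval 0.753- to 1.83-fold, limma adjusted p = 0.803) and 0.955-fold in the gpr1 deletion (log2 -0.07 ± 0.28, interval 0.613- to 1.49-fold, limma adjusted p = 0.998).

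SDC25, a paralogue of CDC25 whose catalytic part can also activate Ras, was the dimmest of the 8 genes. Its deposited intensity was 9.9 and 2.6 in the gpa2 deletion, 71.1 and 26.7 in the gpr1 deletion, and 29.0 and 8.7 in wild type. On the normalised log2 scale the floor was 3.16, an intensity of 8.94 after scaling. The gene's mean of 4.21 on that scale was under the limit of 6.16 for testing. After normalisation it read 3.92 and 3.16 in the gpa2 deletion, 5.65 and 5.26 in the gpr1 deletion, and 3.90 and 3.39 in wild type. Both gpr1 arrays were above all others, although before scaling gpr1 array 2 lay under wild-type array 1. With no filter on dim probe sets the log2 change in the gpr1 deletion was 1.81 ± 0.35 (95% interval 0.82 to 2.80, limma unadjusted p = 0.00708, adjusted p = 0.416), where 0.14% of 9275 probe sets passed. The wild-type readings under this change, 3.90 and 3.39, were near the floor of 3.16, so its size is uncertain. In the gpa2 deletion 1 array was at the floor and neither reading was far above it. The log2 change there was -0.11 ± 0.35 (95% interval -1.09 to 0.88, limma unadjusted p = 0.779, adjusted p = 0.988).

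The SDC25 to CDC25 log2 ratio was -4.21 and -4.94 in the gpa2 deletion, -2.31 and -2.42 in the gpr1 deletion, and -4.04 and -4.44 in wild type. The gpr1 arrays stood apart, with a mean 1.88 above wild type. This rests on SDC25 readings near background, of which 1 of 6 was at the floor.

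**Figure D3:**
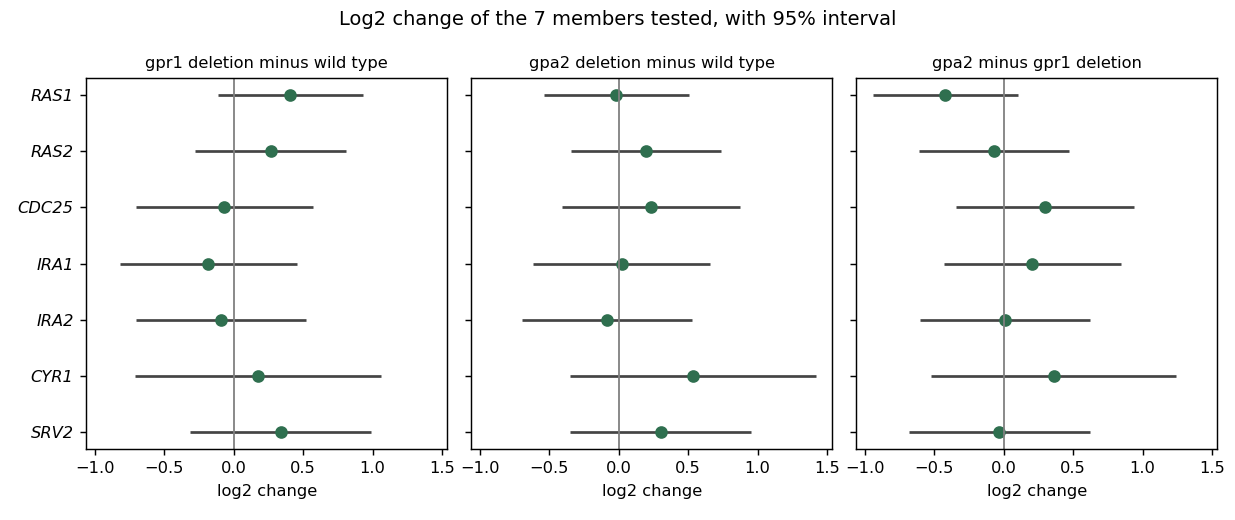
Log2 change (horizontal axis) of the 7 genes tested, for the gpr1 deletion minus wild type, the gpa2 deletion minus wild type and the gpa2 minus the gpr1 deletion. Points are limma estimates and lines are 95% intervals. Every interval includes 0, and the widest are those of CYR1.

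IRA1 and IRA2 encode the GTPase-activating proteins that turn Ras off, and their products resemble human neurofibromin. IRA1 had normalised log2 intensities of 9.17 and 8.75 in the gpa2 deletion, 8.90 and 8.61 in the gpr1 deletion, and 9.16 and 8.71 in wild type. The strains overlapped, and array 1 read higher than array 2 in each. The change was 1.01-fold in the gpa2 deletion (log2 0.02 ± 0.28, 95% interval 0.651- to 1.58-fold, limma adjusted p = 0.988) and 0.880-fold in the gpr1 deletion (log2 -0.18 ± 0.28, interval 0.566- to 1.37-fold, limma adjusted p = 0.980).

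IRA2, read from 8617_at, had normalised log2 intensities of 9.44 and 9.52 in the gpa2 deletion, 9.57 and 9.38 in the gpr1 deletion, and 9.89 and 9.24 in wild type. The 4 mutant arrays all fell between the 2 wild-type arrays. The change was 0.944-fold in the gpa2 deletion (log2 -0.08 ± 0.27, 95% interval 0.617- to 1.44-fold, limma adjusted p = 0.938) and 0.939-fold in the gpr1 deletion (log2 -0.09 ± 0.27, interval 0.614- to 1.44-fold, limma adjusted p = 0.998). Its direction turned with single arrays. Without wild-type array 1 the log2 change was 0.24 in the gpa2 deletion and 0.23 in the gpr1 deletion. Without gpr1 array 2 it was 0.0044 in the gpr1 deletion. The IRA1 to IRA2 log2 ratio was -0.28 and -0.76 in the gpa2 deletion, -0.67 and -0.77 in the gpr1 deletion, and -0.72 and -0.52 in wild type, with all strains overlapping.

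The array carries 11 probe sets for IRA2, of which 3 were bright enough to be tested and 2 lay at the floor on all 6 arrays. The second brightest, 2624_s_at, had deposited intensities of 167.7 and 170.7 in the gpa2 deletion, 338.9 and 188.5 in the gpr1 deletion, and 654.7 and 225.2 in wild type. Its log2 change was -0.21 ± 0.34 in the gpa2 deletion and -0.33 ± 0.34 in the gpr1 deletion (limma adjusted p = 0.860 and 0.975). The third, 2622_s_at, read 17.9 and 100.5 in the gpa2 deletion, 90.5 and 110.0 in the gpr1 deletion, and 150.6 and 141.9 in wild type. The change there was -0.82 ± 0.82 in the gpa2 deletion and -0.23 ± 0.82 in the gpr1 deletion (limma adjusted p = 0.750 and 0.998). All 3 probe sets thus gave negative changes in both deletions, and none passed. They share the same wild-type arrays, so they are not independent readings. On the normalised log2 scale 2624_s_at read 8.72 and 7.84 in wild type, and every mutant array fell between these. In wild type 2622_s_at read 6.51 and 7.23, so there the first array was the lower. The suffix of both marks probes that may match more than one transcript.

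Wild-type array 1 gave the highest deposited intensity of the 6 arrays for 11 of 11 IRA2 probe sets, against 53.4% of all 9275 probe sets. After normalisation it was highest for 7 of 11, against 18% of all. Of the 11, 6 were at the floor on 1 or more arrays, against 1533 of all 9275. The 11 probe sets read 1 gene on the same arrays, so they are not independent. For CYR1 the counts were 6 of 9 before and 1 of 9 after normalisation.

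CYR1 encodes adenylate cyclase, where the Ras and the Gpr1 and Gpa2 inputs meet. Its brightest probe set, 3072_s_at, whose suffix marks probes that may match more than one transcript, had normalised log2 intensities of 9.35 and 9.75 in the gpa2 deletion, 8.56 and 9.82 in the gpr1 deletion, and 8.99 and 9.03 in wild type. Both gpa2 arrays were above wild type, and the gpr1 arrays lay one below and one above. The change was 1.45-fold in the gpa2 deletion, the largest of the 7 genes (log2 0.54 ± 0.39, 95% interval 0.785- to 2.68-fold, limma adjusted p = 0.634), and 1.13-fold in the gpr1 deletion (log2 0.18 ± 0.39, interval 0.612- to 2.09-fold, limma adjusted p = 0.994). The direction in the gpr1 deletion turned with 1 array: leaving out gpr1 array 2 gave a log2 change of -0.45, and leaving out gpr1 array 1 gave 0.81.

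The other bright CYR1 probe set, 11016_at, varied less than 3072_s_at within each deletion and more within wild type. Its normalised log2 intensity was 8.44 and 8.64 in the gpa2 deletion, 8.39 and 8.34 in the gpr1 deletion, and 8.17 and 7.93 in wild type. All 4 mutant arrays were above both wild-type arrays. The log2 change was 0.49 ± 0.26 in the gpa2 deletion (95% interval -0.11 to 1.09, limma adjusted p = 0.518) and 0.31 ± 0.26 in the gpr1 deletion (interval -0.28 to 0.91, limma adjusted p = 0.934). Of the remaining 7 probe sets of CYR1, 2 were tested. One, 3068_s_at, read -0.29 ± 0.40 in the gpa2 deletion and -0.79 ± 0.40 in the gpr1 deletion, opposite in sign to the brighter pair (limma adjusted p = 0.836 and 0.832). The other, 3071_s_at, read 0.45 ± 0.62 in the gpa2 deletion and -0.02 ± 0.62 in the gpr1 deletion (limma adjusted p = 0.833 and 0.999). The rest were too dim to be tested. Of these, 3073_s_at had a higher normalised mean in both deletions than in wild type, and each of the others a lower one. In all, 4 of the 9 probe sets were at the floor on 1 or more arrays.

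**Figure D4:**
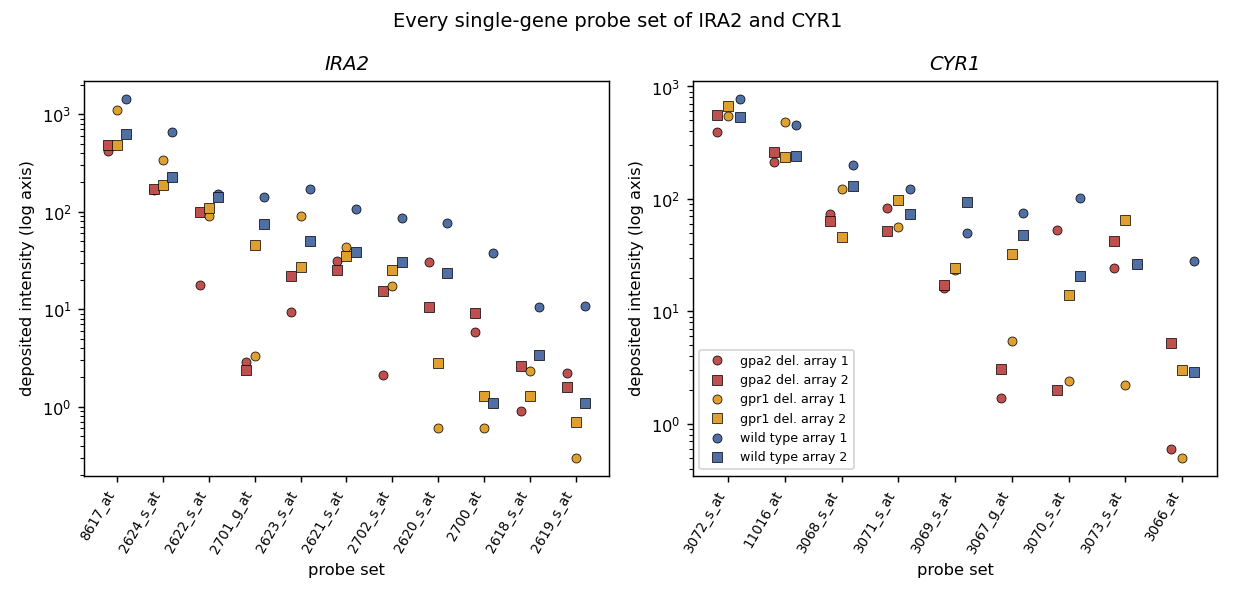
Deposited intensity (vertical log axis) of all 11 probe sets of IRA2 and all 9 of CYR1 (horizontal axis), with circles for array 1 and squares for array 2 of the gpa2 deletion, the gpr1 deletion and wild type. For IRA2 wild-type array 1 is the highest point in 11 of 11 probe sets, and in CYR1 in 6 of 9.

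SRV2 encodes the cyclase-associated protein, which binds Cyr1 and also helps to recycle actin. It had normalised log2 intensities of 11.80 and 11.52 in the gpa2 deletion, 11.69 and 11.70 in the gpr1 deletion, and 11.78 and 10.94 in wild type. Wild-type array 2 was again the lowest, and the other 5 arrays lay close together. The change was 1.23-fold in the gpa2 deletion (log2 0.30 ± 0.29, 95% interval 0.785- to 1.94-fold, limma adjusted p = 0.731) and 1.26-fold in the gpr1 deletion (log2 0.34 ± 0.29, interval 0.804- to 1.98-fold, limma adjusted p = 0.936). Without wild-type array 2 the log2 change was -0.12 in the gpa2 deletion and -0.08 in the gpr1 deletion.

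By strain means, CYR1 and CDC25 were highest in the gpa2 deletion, and RAS1, RAS2 and SRV2 in the gpr1 deletion. IRA2 was highest in wild type, and IRA1 in the gpa2 deletion. No neighbours in these orders differed by the test. Arrays of the gpa2 deletion and wild type did not overlap for 2 of the 7 genes (CDC25 and CYR1, both higher in the deletion), where 39.7% of all probe sets tested did not overlap. For the gpr1 deletion against wild type it was 1 of 7 (RAS1, higher), where 32.4% of all did not. Between the deletions it was 2 of 7 (RAS1 lower and CDC25 higher in the gpa2 deletion), where 30.9% did not.

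For each gene tested, the gene with the most similar profile was sought among the other probe sets tested that name 1 gene, by Pearson's r over the 6 normalised arrays. RAS1 was most like TOA2, a subunit of the transcription factor TFIIA (r = 0.993), and RAS2 most like CDC11, a septin (0.994). CDC25 was nearest to GAA1, a subunit of the GPI transamidase (0.968), IRA1 to YGL114W (0.981) and CYR1 to YRM1, a zinc-finger transcription factor (0.994). IRA2 was nearest to the probe set assigned to SUF2, a tRNA gene (0.989), which was also brightest on wild-type array 1. SRV2 was nearest to MCK1, a protein kinase (0.994), and 82 probe sets followed SRV2 with r above 0.95, all sharing its arrays and their scaling. Over the same 6 arrays, the highest r of any pair of members was 0.75, for RAS1 and RAS2. The lowest were -0.91 for RAS2 and IRA1 and -0.82 for RAS1 and IRA1. In every strain RAS2 read lower and IRA1 higher on array 1 than on array 2. Each search ran over at least 5646 probe sets, and with so few arrays such values are a description only.

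The other genes of the pathway were grouped into 7 lists of 40 genes, and all 40 were tested. The lists were chosen with earlier results of these data known, so their counts beside all probe sets are not a test of the pathway. Of the 40, 2 rose in the gpa2 deletion and 1, the deleted GPA2, fell, where 0.776% of all probe sets tested passed. Without the deleted gene, 3 of 39 were at an unadjusted p under 0.05 by limma, against 11.4% of all. In the gpr1 deletion the deleted GPR1 fell and no other passed, where 0.23% of all did. Without it, 5 of 39 were at an unadjusted p under 0.05 by limma, against 6.64% of all. The median log2 change of the 40 was 0.12 in the gpa2 deletion and 0.07 in the gpr1 deletion, beside -0.02 and 0.00 over all probe sets tested.

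TFS1, which encodes an inhibitor of carboxypeptidase Y that also binds and inhibits Ira2, had normalised log2 intensities of 11.84 and 12.26 in the gpa2 deletion, 10.95 and 11.60 in the gpr1 deletion, and 10.03 and 10.35 in wild type. The 3 strains did not overlap. TFS1 rose 3.63-fold in the gpa2 deletion (log2 1.86 ± 0.28, limma adjusted p = 0.0322), and read 2.12-fold of wild type in the gpr1 deletion (log2 1.08 ± 0.28, limma adjusted p = 0.320). It is also counted among the genes of the general stress response. The kelch proteins Gpb1 and Gpb2, which stabilise the Ira proteins, completed this list of Ira regulators and did not pass. GPB1 read -0.51 ± 0.29 in the gpa2 deletion and -0.69 ± 0.29 in the gpr1 deletion, with all 4 mutant arrays below wild type (limma adjusted p = 0.540 and 0.708), and GPB2 read 0.11 and 0.23.

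GPG1, whose product binds the kelch proteins in the Gpa2 branch, had normalised log2 intensities of 10.29 and 10.18 in the gpa2 deletion, 9.65 and 9.73 in the gpr1 deletion, and 8.96 and 8.75 in wild type. Again no strain overlapped another. GPG1 rose 2.60-fold in the gpa2 deletion (log2 1.38 ± 0.22, limma adjusted p = 0.0371) and read 1.78-fold of wild type in the gpr1 deletion (log2 0.84 ± 0.22, limma adjusted p = 0.331). Neither gene's direct contrast between the deletions passed. Both calls were lost without either gpa2 array, with limma adjusted p of 0.152 to 0.280, and on the values as deposited, where log2 changes were 0.82 for TFS1 and 0.38 for GPG1 beside a median of -1.02 over all probe sets, or 1.85 and 1.40 relative to that median. With no filter on dim probe sets the limma adjusted p was 0.234 for TFS1 and 0.117 for GPG1, and the GPG1 call was also lost without either gpr1 array or wild-type array 2 (0.0608 to 0.0917).

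**Figure D5:**
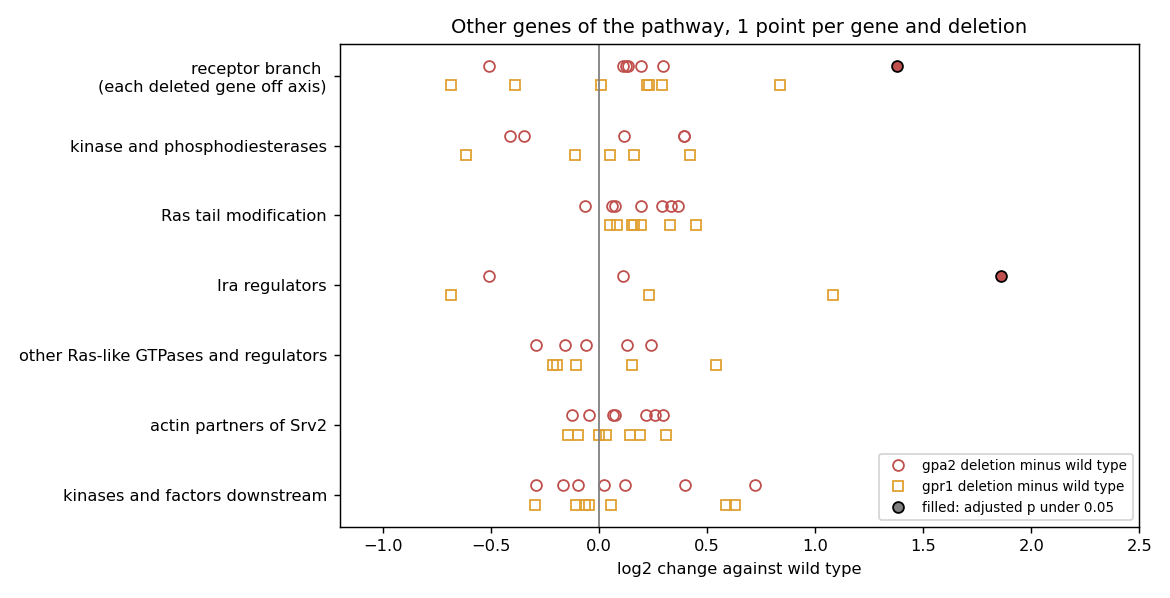
Log2 change against wild type (horizontal axis) of each gene in the 7 pathway lists, as circles for the gpa2 deletion and squares for the gpr1 deletion. Filled points passed limma's adjusted p of 0.05. Apart from the deleted genes, only GPG1 at 1.38 and TFS1 at 1.86 in the gpa2 deletion are filled, and the other points lie between -0.69 and 1.08.

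Below the cyclase, 5 genes of protein kinase A and the cAMP phosphodiesterases were tested, and 0 of 5 passed by limma in any comparison. At an unadjusted p under 0.05 by limma the count was 0 in the gpa2 deletion, 1 in the gpr1 deletion and 1 between the deletions. Over all probe sets tested the shares were 11.4%, 6.64% and 2.34%, and lists this small cannot be told from them. The largest change in the gpr1 deletion was that of PDE1, the low-affinity phosphodiesterase (log2 -0.62 ± 0.25), and in the gpa2 deletion that of TPK3, a catalytic subunit (-0.41 ± 0.26). Among 7 kinases and factors further down, 0 of 7 passed. The stress transcription factor MSN2 read 0.72 ± 0.25 in the gpa2 deletion and 0.63 ± 0.25 in the gpr1 deletion (limma adjusted p = 0.322 and 0.708). In each deletion 1 of 7 was at an unadjusted p under 0.05 by limma, against the same 11.4% and 6.64% of all probe sets tested.

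Another list held 7 genes for the processing and lipidation of the tails of Ras and similar proteins. Changes were positive for 6 of 7 in the gpa2 deletion and 7 of 7 in the gpr1 deletion, with medians of 0.20 and 0.16. By limma 0 passed. Over all probe sets tested 47.9% and 49.9% were positive, and both counts rest on the same wild-type arrays. Without wild-type array 2 the counts were 7 of 7 and 6 of 7, with medians of 0.17 and 0.25. SHR5, a subunit of the Ras palmitoyltransferase, read 0.37 ± 0.29 in the gpa2 deletion and 0.45 ± 0.29 in the gpr1 deletion, the largest of the list in each. Other Ras-like GTPases and their regulators had medians of -0.06 and -0.11 with 0 of 5 passing, led by RSR1, the bud-site GTPase, in the gpa2 deletion (-0.29 ± 0.36) and by LTE1, which resembles exchange factors, in the gpr1 deletion (0.54 ± 0.32). Actin partners of Srv2 had medians of 0.07 and 0.03, again with 0 of 7 passing. TWF1, twinfilin, read 0.30 ± 0.23 in the gpa2 deletion, and PFY1, profilin, read 0.31 ± 0.35 in the gpr1 deletion. At an unadjusted p under 0.05 these 3 lists had a count of 0 in both deletions by limma, against 11.4% and 6.64% of all probe sets tested.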

How the data were processed

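The authors deposited 1 intensity per probe set and array, on a linear scale, from single-colour labelling of total RNA per the labels. Their summary method and scaling were not given in the sources used here. The column names, which are sample accessions, assigned each column. Because array medians differed by 1.32 on the log2 scale (limit 0.2), arrays were quantile normalised, values under the pooled 10th percentile (intensity 8.94) were raised to it, and log2 was taken. Of 9335 probe sets, 60 controls and 2319 with a mean under the 25th percentile were left out, leaving 6956. Gene names came from the platform annotation.

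The 3 comparisons were fitted in limma 3.58.1 (R 4.3.3) over all 6 arrays, 1 coefficient per strain, with trended moderation on 3 residual and 5.52 prior degrees of freedom, and p-values were adjusted over all probe sets by Benjamini-Hochberg. The number of arrays limits the precision. The procedure was tested on simulated data. Members and gene lists were chosen with earlier results of these data known. Outside the members, genes were named when past the threshold, when their change was the largest of their list, or when most alike in profile; SPT15, ACT1, GPB1, GPB2 and the other CYR1 and IRA2 probe sets were added afterwards. Alternatives were a replicate block, other scalings, floors, filters, moderation and samples, the mean of all probe sets of a gene, and leaving out each array. One gene of the lists is not reported here. No sequence was used.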

Additional observations from a re-analysis of the deposited data

How the results depend on the processing

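Under every alternative run, none of the 7 genes that was tested passed in any comparison. The lowest limma adjusted p was 0.151 (RAS1 in the gpa2 deletion, values as deposited). The mean of all probe sets could alter only IRA2 and CYR1, which alone have several. Both means fell under the limit of 6.16 for testing, so this alternative left these genes untested and says nothing about them. Of 315 values under alternatives, 282 kept their direction and 33 changed sign, all of them changes that had not passed. The block, floors, filter and moderation left each log2 change as it was and could not change its sign. So did fitting only the groups compared, or leaving out an array of the strain not compared. All 33 reversals came from other scalings or from leaving out an array of a compared strain. The 315 values do not include the mean of all probe sets or any other choice of probe set. That choice also mattered for CYR1, where 3068_s_at read -0.29 in the gpa2 deletion and -0.79 in the gpr1 deletion. On the values as deposited the median of all probe sets shifted by -1.02 in the gpa2 deletion, -0.32 in the gpr1 deletion and -0.70 between the deletions. There RAS2, CDC25, IRA1, CYR1 and SRV2 read -0.89, -0.76, -0.98, -0.47 and -0.78 in the gpa2 deletion, RAS2, CYR1 and SRV2 read -0.14, -0.10 and -0.038 in the gpr1 deletion, and CDC25, IRA1, IRA2 and CYR1 read -0.39, -0.51, -0.72 and -0.36 between the deletions. Relative to that shift RAS2 read 0.13 in the gpa2 deletion and 0.18 in the gpr1 deletion, and CYR1 0.56 and 0.22. With median centring IRA2 between the deletions was -0.023.

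Where leaving out 1 array leaves a strain with 1, that array is assumed to vary like the other strains. So fitted, the log2 change in the gpa2 deletion ran from -0.25 to 0.22 for RAS1, -0.015 to 0.41 for RAS2, -0.20 to 0.24 for IRA1, -0.41 to 0.24 for IRA2 and -0.12 to 0.72 for SRV2. In the gpr1 deletion it ran from -0.21 to 0.076 for CDC25, -0.41 to 0.040 for IRA1, -0.41 to 0.23 for IRA2, -0.45 to 0.81 for CYR1 and -0.083 to 0.76 for SRV2. Between the deletions it ran from -0.28 to 0.14 for RAS2, -0.0041 to 0.41 for IRA1, -0.088 to 0.10 for IRA2, -0.27 to 0.99 for CYR1 and -0.17 to 0.10 for SRV2.

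Of all probe sets, 54 passed in the gpa2 deletion, 16 in the gpr1 deletion and 2 between the deletions. Leaving out 1 array gave 7 to 179, 5 to 53 and 2 to 5. With the replicate number as a block 123 passed in the gpa2 deletion and 33 in the gpr1 deletion, and TFS1 passed in the gpr1 deletion (adjusted p = 0.0495). Array differences within a strain correlated by 0.40 between gpa2 and wild type, 0.20 between gpr1 and wild type and 0.21 between the deletions, but the labels do not say what the numbers share. On the values as deposited 126 passed in the gpa2 deletion and 10 between the deletions; with no filter 15 and 5; without a trend 26 in the gpa2 and 6 in the gpr1 deletion; with only the groups compared 27 and 8. Without a trend TFS1 and GPG1 lost their calls in the gpa2 deletion (adjusted p = 0.0902 and 0.0806), as did GPG1 with only the groups compared (0.0914). The cause was not tested.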
